A study of Mus musculus with 23 samples.

Results

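Transcript levels of bone marrow-derived macrophages exposed for 5 h to stearic acid (SA) were compared with those of macrophages given only its carrier, bovine serum albumin (BSA). The comparison held 7 of the 23 arrays of the series, chosen by their titles: 4 SA arrays and 3 vehicle arrays. SA was given at 250 µM in a 2:1 molar complex with fatty acid-free, low-endotoxin BSA, and the vehicle was BSA at 125 µM. Oleic acid (OA) at 250 µM on the same carrier (n = 4) and lipopolysaccharide (LPS) at 1 ng/mL (n = 4), both labelled 5 h, served for comparison. Vehicle and LPS are labelled 5 h on the samples but 4 h in the series text, so an hour of exposure cannot be told apart from treatment where SA or OA is compared with vehicle or LPS. Whether the LPS wells also held BSA was not established, so a part of BSA in the comparisons with LPS was not tested. The cells of every group were wild-type C57Bl/6 marrow cells grown for 6 days in macrophage colony-stimulating factor (M-CSF) at 10 ng/mL, which was withdrawn 1 to 3 days before treatment. The labels speak of replicate wells and the series text of biological replicates. The p-values therefore measure the spread between these samples, which may be technical.

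Values are log2 expression per probe set, and a gene was read from its brightest probe set. Of 19938 genes tested with limma, 386 (1.94% of genes) rose and 278 (1.39%) fell with SA at an adjusted p under 0.05, with 45 and 6 of them changed at least 2-fold. The median change was 0.55 among the risen genes, -0.51 among the fallen genes and 0.01 over all genes, and the median standard error was 0.13, all on the log2 scale. The SA and vehicle arrays did not overlap for 13.9% of all genes. No array stood apart: the SD of gene deviations from the group mean lay between 0.16 and 0.18 on the SA arrays and between 0.13 and 0.14 on the vehicle arrays. Array medians over the tested genes lay between 4.18 and 4.33, and no detection call came with the values, so the size of a change is uncertain wherever a group mean falls near or below these medians.

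Stearic acid is a saturated fatty acid of diets rich in animal fat. Oleic acid differs from it by a double bond in a chain of equal length. Saturated fatty acids are known to provoke cytokine and chemokine transcription through NF-kB in macrophages, a property that links them to inflammation in obese fat tissue. They also stress the endoplasmic reticulum (ER) when they enter membrane phospholipids, and the kinase PERK then favours translation of ATF4, a transcription factor for amino acid supply, redox defence and its own partner CHOP. Cells buffer free fatty acids by storing them as triglyceride in lipid droplets.

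Both groups carried high levels of macrophage transcripts. The 27 measured macrophage genes averaged 9.08 to 9.12 on the SA arrays and 9.24 to 9.32 on the vehicle arrays, and none had a group mean below the lowest array median. Csf1r read 10.10, 10.05, 10.22 and 10.06 on the SA arrays, against 10.18, 10.22 and 10.22 on the vehicle arrays. Csf1r encodes the M-CSF receptor, and its change of -0.10 (95% interval -0.25 to 0.06) did not pass the test. Markers of dendritic cells averaged 3.35 to 3.47 with SA and 3.36 to 3.45 with vehicle, those of lymphocytes 3.54 to 3.70 and 3.65 to 3.71, and those of mast cells and basophils 2.94 to 3.07 and 2.98 to 3.04. Of these, 8 of 10, 11 of 13 and 7 of 8 members had SA and vehicle means below the lowest array median. Among the exceptions was Il7r, the interleukin 7 receptor chain, which read 10.33 with SA and 9.82 with vehicle. Neutrophil markers averaged 5.41 to 5.81 with SA and 5.77 to 6.02 with vehicle, which overlap, and 1 of 14 members had a higher mean with SA (list median -0.18), with S100a8 at 11.20 with SA and 11.37 with vehicle. The granule gene Ngp fell by 0.58, a call lost without vehicle replicate 2 or 3 or SA replicate 2 (log2 change -0.57 to -0.44, adjusted p 0.0567 to 0.0997). The part of the neutrophil transcripts in the changes below was not tested. In bulk RNA, fewer cells of a type and less RNA per cell cannot be told apart.

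Of the 4 largest rises, 3 were those of the neutrophil chemokine genes Cxcl1, Cxcl2 and Cxcl3, which lie close together on chromosome 5. The promoters of all 3 hold the letters GGNNTTTCC of the NF-kB motif. Their upstream windows are printed because large rises fell on this cluster, with that of Nfkbia, the classical NF-kB feedback inhibitor, beside them. The sequences are RefSeq's (GRCm38.p6), the 250 bases before the start site on the strand of the gene, with the motif on either strand in capitals. Cxcl1 is chr5:90890995-90891244, Cxcl2 is chr5:90903649-90903898 and Cxcl3 is chr5:90785851-90786100, all on the plus strand, and Nfkbia is chr12:55492648-55492897 on the minus strand.
Cxcl1: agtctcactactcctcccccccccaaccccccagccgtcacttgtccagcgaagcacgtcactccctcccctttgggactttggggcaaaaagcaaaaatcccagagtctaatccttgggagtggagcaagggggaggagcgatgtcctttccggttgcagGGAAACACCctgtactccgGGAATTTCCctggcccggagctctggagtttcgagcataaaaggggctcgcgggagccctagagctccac
Cxcl2: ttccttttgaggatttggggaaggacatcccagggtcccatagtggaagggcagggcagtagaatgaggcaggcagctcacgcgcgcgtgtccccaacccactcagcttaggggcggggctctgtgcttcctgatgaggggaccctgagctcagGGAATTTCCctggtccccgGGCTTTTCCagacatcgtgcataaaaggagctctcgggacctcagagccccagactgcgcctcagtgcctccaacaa
Cxcl3: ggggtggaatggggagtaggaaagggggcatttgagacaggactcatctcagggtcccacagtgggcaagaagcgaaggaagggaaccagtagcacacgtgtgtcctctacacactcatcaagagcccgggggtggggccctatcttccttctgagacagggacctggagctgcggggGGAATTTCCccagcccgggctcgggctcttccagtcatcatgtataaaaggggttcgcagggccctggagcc
Nfkbia: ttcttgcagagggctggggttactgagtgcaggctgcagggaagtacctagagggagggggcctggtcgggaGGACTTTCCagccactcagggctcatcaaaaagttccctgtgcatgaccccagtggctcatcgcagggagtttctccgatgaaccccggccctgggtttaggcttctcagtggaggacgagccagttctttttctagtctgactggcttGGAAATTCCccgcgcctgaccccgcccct
The motif stood 89 and 70 bases before the start in Cxcl1, 96 and 77 bases before it in Cxcl2, 72 bases before it in Cxcl3, and 178 and 29 bases before it in Nfkbia, counted to its first base. Of the 33 NF-kB and chemokine genes with a promoter in the table, 14 (42.4%) held it, and 8 of the 12 that rose did. The share among all 15562 tested genes with a promoter was 5.7%.

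A second set of promoters belongs to genes of the amino acid and redox response. Slc7a11 imports cystine, Chac1 degrades glutathione and Asns makes asparagine. The capitals mark TGATGNAA, the core of the composite site that ATF4 and C/EBP factors bind, on either strand. Slc7a11 is chr3:50443614-50443863 on the minus strand, Chac1 is chr2:119350992-119351241 on the plus strand and Asns is chr6:7693210-7693459 on the minus strand. The Slc7a11 window precedes a start site that lies inside the annotated span of the gene, chr3:50364936-50499087, and not at its outer end.
Slc7a11: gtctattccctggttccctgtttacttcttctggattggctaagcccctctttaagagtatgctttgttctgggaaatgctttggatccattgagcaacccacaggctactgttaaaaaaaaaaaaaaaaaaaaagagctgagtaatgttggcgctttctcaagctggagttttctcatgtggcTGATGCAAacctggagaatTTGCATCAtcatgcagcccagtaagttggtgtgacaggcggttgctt
Chac1: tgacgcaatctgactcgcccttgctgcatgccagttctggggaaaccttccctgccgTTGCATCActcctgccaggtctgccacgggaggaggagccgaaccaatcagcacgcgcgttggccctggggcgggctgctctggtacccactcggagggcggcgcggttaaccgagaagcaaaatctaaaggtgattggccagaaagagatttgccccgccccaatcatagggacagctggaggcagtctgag
Asns: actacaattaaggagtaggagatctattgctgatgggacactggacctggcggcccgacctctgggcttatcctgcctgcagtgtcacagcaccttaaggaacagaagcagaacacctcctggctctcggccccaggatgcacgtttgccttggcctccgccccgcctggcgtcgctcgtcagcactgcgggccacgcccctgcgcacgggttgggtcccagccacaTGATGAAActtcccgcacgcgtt
The motif stood 66 and 47 bases before this inner start in Slc7a11, 193 bases before the start in Chac1 and 23 bases before it in Asns. Of 32 ATF4 and CHOP targets with a promoter, 8 (25%) held it, and 5 of the 16 that rose did, against 3.14% of all genes with a promoter. The same count gave 5 of 22 (22.7%) interferon-stimulated genes with GAANNGAAA against 6.81% of genes. It gave 4 of 21 (19.0%) NRF2 targets with TGACNNNGC against 12.5%, and 1 of 22 (4.55%) sterol genes with TCACNCCAC against 1.2%. Among the risen members with a promoter, 2 of 5 interferon-stimulated genes, 2 of 6 NRF2 targets and 0 of 3 sterol genes held their motif. A match describes the letters in this window and shows no binding.

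**Figure D1:**
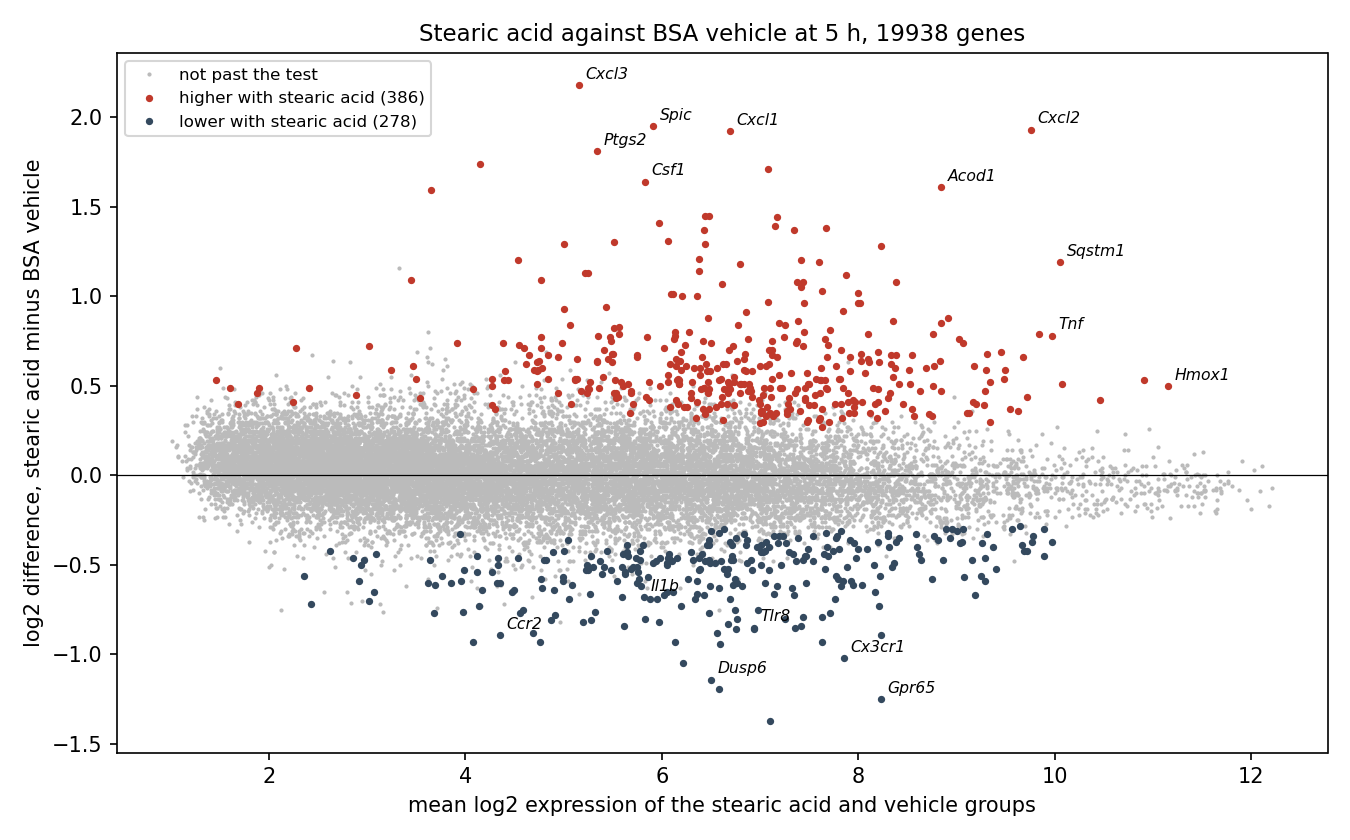
Log2 difference of SA minus vehicle (vertical axis) against the mean log2 expression of the 2 groups (horizontal axis) for each of the 19938 genes, with the 386 risen genes in red, the 278 fallen genes in dark blue and the others in grey. Cxcl3 stands highest at 2.18, Cxcl2 combines a change of 1.93 with a high level, and the falls are smaller, down to -1.37.

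The neutrophil chemokine genes were high with SA. Cxcl2 read 10.59, 10.69, 10.79 and 10.80 on the SA arrays, against 8.79, 8.67 and 8.91 on the vehicle arrays. Every SA array lay above every vehicle array, and Cxcl2 was 3.8-fold higher (log2 change 1.93 ± 0.10 (SE), adjusted p = 1.48e-11). Cxcl1 read 7.56, 7.33, 7.91 and 7.80 on the SA arrays, against 5.80, 5.68 and 5.71 on the vehicle arrays. Cxcl1 is a sister chemokine that binds the same receptor, CXCR2, and was 3.79-fold higher (1.92 ± 0.12 (SE), adjusted p = 1.39e-10). Cxcl3 read 6.32, 6.08, 6.32 and 6.29 on the SA arrays, against 3.89, 4.29 and 4.03 on the vehicle arrays. Cxcl3 gave the largest rise of all genes, 2.18 ± 0.11 (SE) on the log2 scale (adjusted p = 4.9e-12), from a vehicle level near the array medians. Of 21 chemokines, 7 rose and none fell, with a list median of 0.06. When 1 array was left out the median lay between 0.05 and 0.17, highest without vehicle replicate 2, and 1 chemokine gene fell without SA replicate 3. The T cell chemokine Ccl5 rose by 0.69 ± 0.10 (SE). Ccl3, Ccl4 and Cxcl10, named here after their values were seen, rose by 0.53, 0.61 and 0.68. The monocyte chemokines Ccl2 and Ccl7, also chosen after their values were seen, read 9.10 and 8.17 with SA against 9.05 and 8.21 with vehicle, and neither passed the test.

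Tnf, the central inflammatory cytokine, and Csf1, the macrophage growth factor, rose, while Il1b fell. Tnf read 10.27, 10.33, 10.45 and 10.40 on the SA arrays, against 9.49, 9.55 and 9.72 on the vehicle arrays. Its change was 0.78 ± 0.09 (SE) (adjusted p = 2.24e-06). Csf1 read 6.53, 6.45, 6.87 and 6.76 on the SA arrays, against 4.80, 5.09 and 5.15 on the vehicle arrays. Csf1 encodes M-CSF, the factor in which these cells had been grown, and was 3.11-fold higher (adjusted p = 3.86e-08). Tnfsf9, which encodes a ligand that costimulates T cells, rose by 1.29 ± 0.19 (SE). Il1b read 5.25, 5.33, 5.62 and 5.70 on the SA arrays, against 6.04, 6.39 and 6.04 on the vehicle arrays. The SA and vehicle arrays of Il1b did not overlap, and its change was -0.68 ± 0.16 (SE) (adjusted p = 0.0152). Its call was lost without vehicle replicate 2 (log2 change -0.56, adjusted p = 0.137) and without SA replicate 1 (log2 change -0.61, adjusted p = 0.0561) or 2 (log2 change -0.63, adjusted p = 0.05, at the threshold). Il6 read 2.33, 2.05, 1.79 and 1.91 on the SA arrays, against 1.76, 1.73 and 1.68 on the vehicle arrays. Il6, an acute-phase cytokine, therefore lay below the array medians in both groups, with a change of 0.30 (95% interval -0.08 to 0.68) that did not pass the test. Of 27 cytokines and growth factors, 3 rose and 1 fell, with a median of 0.09 (0.16 without vehicle replicate 2).

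Genes of the NF-kB system rose, inhibitors among them. Of 22 subunits, inhibitors and feedback genes, 9 rose and none fell (1 without SA replicate 1), with a median of 0.37 against 0.01 over all genes. Nfkbia read 9.13, 8.94, 9.31 and 9.21 on the SA arrays, against 8.47, 8.53 and 8.52 on the vehicle arrays. It encodes IkB-alpha and rose by 0.64 ± 0.10 (SE) (adjusted p = 0.000266). Tnfaip3 read 8.03, 8.07, 8.19 and 8.02 on the SA arrays, against 7.32, 7.43 and 7.66 on the vehicle arrays. This gene encodes A20, which ends NF-kB signalling, and it rose by 0.61 ± 0.09 (SE). The early response gene Ier3 and the adaptor Traf1 rose by 0.91 ± 0.12 (SE) and 0.67 ± 0.13 (SE). The other 5 called members, named after their values were seen, were the inhibitor genes Nfkbib, Nfkbie and Nfkbiz and the subunit genes Rel and Relb, at 0.37 to 0.60.

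Several effector enzymes and receptors of activated macrophages rose beside them. Ptgs2 read 6.29, 6.19, 6.15 and 6.38 on the SA arrays, against 4.55, 4.50 and 4.27 on the vehicle arrays. Ptgs2 makes the precursor of the prostaglandins, and was 3.51-fold higher (adjusted p = 4.16e-10). Ptges, the synthase of prostaglandin E2, rose by 0.76 ± 0.14 (SE). Hpgd, the enzyme that inactivates prostaglandins, fell by 0.88 on the log2 scale, a call lost without vehicle replicate 3 (log2 change -0.83, adjusted p = 0.0523). Of 16 prostanoid and leukotriene genes, 3 rose and 2 fell, with a median of 0.01. Acod1 read 9.58, 9.43, 9.94 and 9.66 on the SA arrays, against 8.10, 7.89 and 8.13 on the vehicle arrays. Acod1 makes itaconate from a citric acid cycle intermediate, and was 3.06-fold higher (adjusted p = 9.81e-09). Among 9 itaconate, nitric oxide and arginine genes, Acod1 alone rose and none fell. Clec4e read 8.85, 8.86, 8.99 and 9.01 on the SA arrays, against 7.90, 7.78 and 7.85 on the vehicle arrays. The product of Clec4e, Mincle, is a C-type lectin receptor for glycolipids of mycobacteria and dying cells, and the gene rose by 1.08 ± 0.12 (SE). Ccrl2 read 7.72, 7.80, 8.24 and 7.98 on the SA arrays, against 6.36, 6.13 and 6.19 on the vehicle arrays. Ccrl2 encodes a chemerin-binding receptor and was 3.27-fold higher. Cd274, Cd83 and Cd40, which encode PD-L1 and a pair of costimulatory molecules, rose by 1.12 ± 0.12 (SE), 1.03 ± 0.11 (SE) and 0.54 ± 0.10 (SE). Of 12 genes of antigen presentation and costimulation, 4 rose and none fell.

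Sensor genes moved in both directions. Nlrp3 read 7.53, 7.28, 7.56 and 7.63 on the SA arrays, against 6.90, 6.88 and 6.76 on the vehicle arrays. Nlrp3 encodes the inflammasome sensor and rose by 0.66 ± 0.09 (SE) (adjusted p = 5.58e-05). Casp4, which encodes the caspase that senses cytosolic LPS, and the channel gene Panx1 rose by 0.59 ± 0.10 (SE) and 0.62 ± 0.11 (SE). Among the 20 measured genes of inflammasomes and pyroptosis, 3 rose and 1 fell, with a median of -0.11 (-0.06 without vehicle replicate 2). The fallen gene, Pycard, which encodes the inflammasome adaptor ASC, fell by 0.40, a call lost without any one of the vehicle arrays (log2 change -0.40 to -0.39, adjusted p 0.0538 to 0.0692). Tlr8 read 6.63, 6.61, 6.45 and 6.35 on the SA arrays, against 7.25, 7.46 and 7.38 on the vehicle arrays. Tlr8 encodes an endosomal receptor and fell by 0.85 (adjusted p = 2.69e-06), while Tlr2, which encodes a lipoprotein receptor, rose by 0.51 ± 0.11 (SE). Tlr4 read 7.73, 7.89, 7.66 and 7.77 on the SA arrays, against 7.55, 7.60 and 7.65 on the vehicle arrays. Tlr4 encodes the LPS receptor, and its change of 0.16 (95% interval -0.03 to 0.35) did not pass the test. Cd14, its co-receptor, gave -0.08 (95% interval -0.25 to 0.10), which did not pass either.

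**Figure D2:**
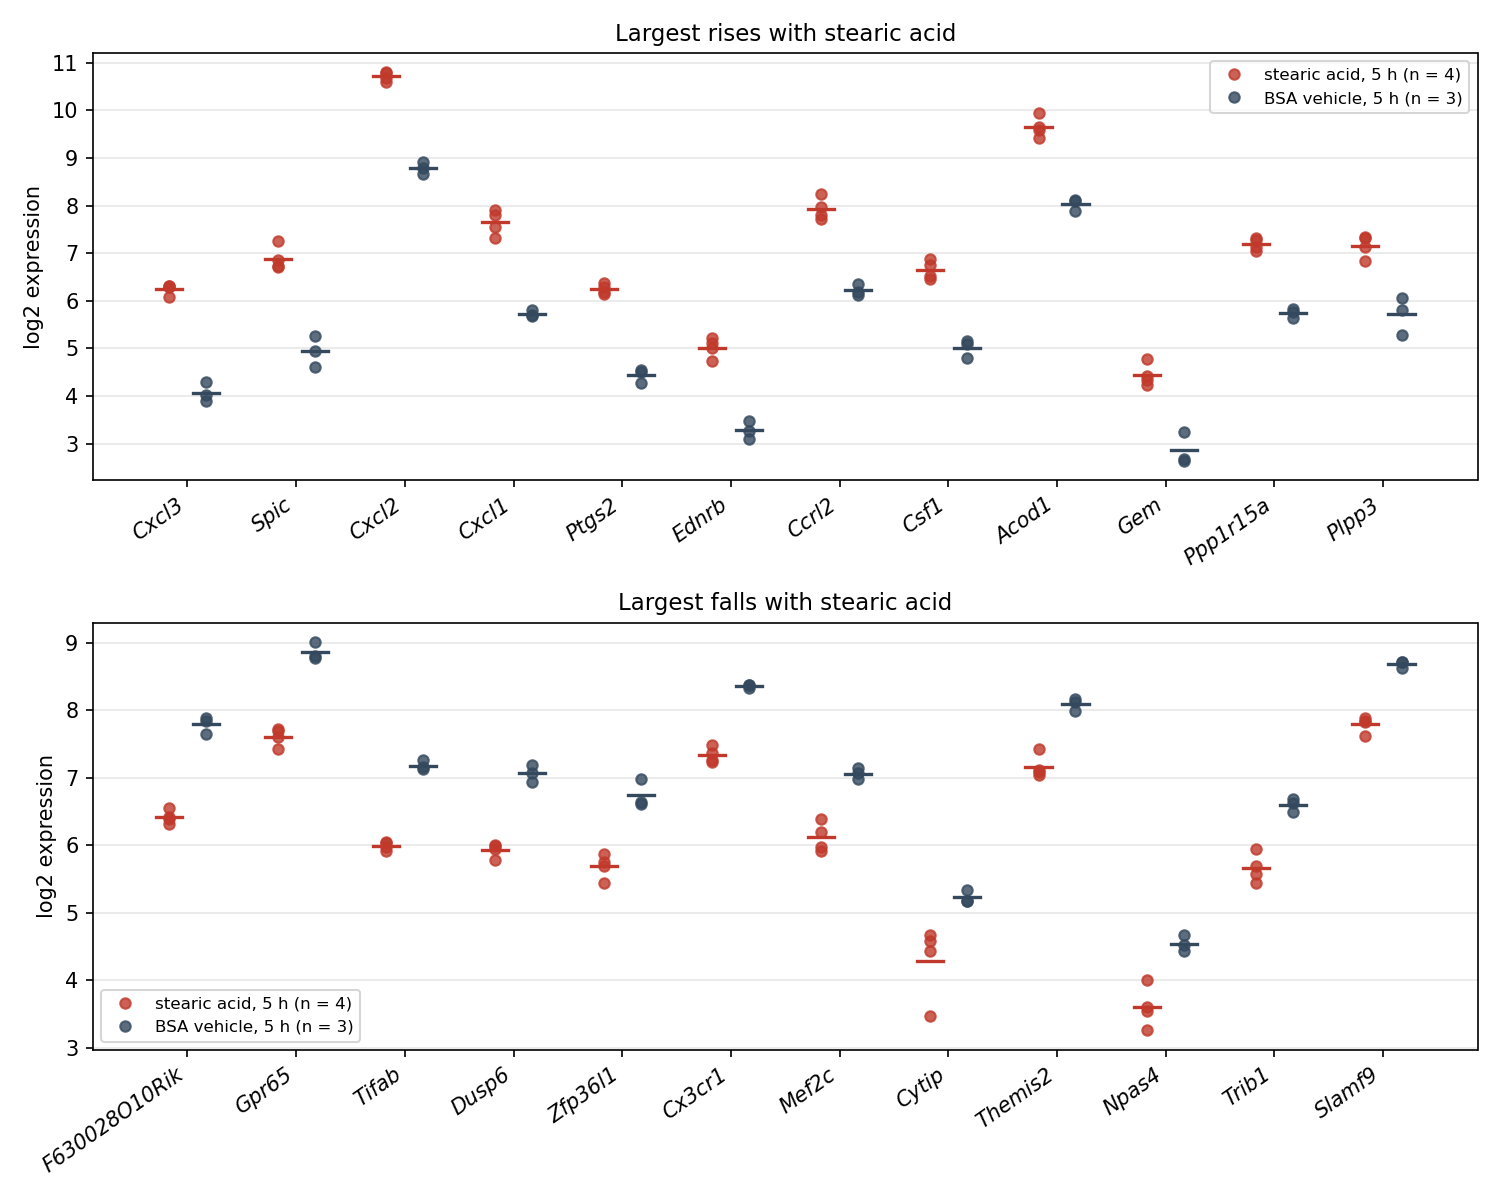
Log2 expression (vertical axis) on each array for the 12 largest rises (upper panel) and the 12 largest falls (lower panel), SA at left in red (n = 4) and vehicle at right in dark blue (n = 3), with bars at the group means. The groups do not overlap for any of these genes, as the rule that chose them required, and Cytip shows 1 SA array at 3.47 well below the other SA arrays.

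A minority of the interferon-stimulated genes rose. Of 31 members, 7 rose and none fell, with a median of 0.25. Rsad2 read 7.15, 7.46, 7.47 and 7.47 on the SA arrays, against 5.94, 6.14 and 6.52 on the vehicle arrays. Rsad2 encodes viperin, an antiviral enzyme, and was 2.27-fold higher (1.18 ± 0.18 (SE), adjusted p = 0.000138). Irf1 read 7.86, 7.73, 8.01 and 7.98 on the SA arrays, against 6.34, 6.41 and 6.62 on the vehicle arrays. The transcription factor gene Irf1 was 2.71-fold higher (adjusted p = 2.49e-08), whereas Irf2, which encodes its antagonist, fell by 0.49. Oasl1 read 5.52, 5.80, 6.06 and 6.06 on the SA arrays, against 5.22, 4.98 and 5.14 on the vehicle arrays. Oasl1, which in mice restrains translation of the interferon regulator IRF7, rose by 0.75 ± 0.13 (SE). Ifnb1 read 2.50, 2.06, 2.14 and 2.03 on the SA arrays, against 2.41, 2.51 and 1.92 on the vehicle arrays. Ifnb1 encodes interferon beta and lay below the array medians, with a change of -0.09 (95% interval -0.49 to 0.30) that did not pass the test. The count of risen members was 3 without vehicle replicate 1, 4 without vehicle replicate 3 and 4 without SA replicate 2. Ifit1 and Ifit2, antiviral RNA-binding proteins, rose by 0.88 ± 0.22 (SE) and 0.79 ± 0.20 (SE). The call of Ifit1 was lost when vehicle replicate 1, 2 or 3 or SA replicate 1 or 2 was left out (log2 change 0.84 to 0.90, adjusted p 0.063 to 0.112), and that of Ifit2 without vehicle replicate 1 or 2 or SA replicate 2 (log2 change 0.71 to 0.76, adjusted p 0.0726 to 0.101).

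Targets of ATF4 and CHOP formed the list with the most risen members. Of 38 measured, 17 rose and none fell, with a median of 0.35. Ddit3 read 7.96, 7.85, 8.19 and 8.11 on the SA arrays, against 6.45, 6.79 and 6.73 on the vehicle arrays. Ddit3 encodes CHOP and was 2.59-fold higher (log2 change 1.37 ± 0.11 (SE), adjusted p = 1.07e-08). Ppp1r15a read 7.14, 7.05, 7.33 and 7.28 on the SA arrays, against 5.77, 5.65 and 5.83 on the vehicle arrays. Ppp1r15a encodes GADD34, which restores translation after stress, and was 2.73-fold higher. Chac1 read 5.82, 5.76, 5.83 and 5.86 on the SA arrays, against 4.75, 4.62 and 4.67 on the vehicle arrays. Asns read 7.92, 7.80, 7.96 and 7.98 on the SA arrays, against 6.68, 6.86 and 6.97 on the vehicle arrays. Slc7a11 read 8.47, 8.46, 8.56 and 8.52 on the SA arrays, against 7.31, 7.60 and 7.55 on the vehicle arrays. The 3 genes whose promoters are printed above rose by 1.13 ± 0.11 (SE) (Chac1), 1.08 ± 0.10 (SE) (Asns) and 1.02 ± 0.12 (SE) (Slc7a11), with no overlap between the groups. Trib3, which encodes a pseudokinase that restrains ATF4, rose by 0.77 ± 0.18 (SE), a call lost without vehicle replicate 1 (log2 change 0.65, adjusted p = 0.125) or SA replicate 3 (log2 change 0.57, adjusted p = 0.0615). Atf3 read 10.89, 10.91, 11.31 and 11.24 on the SA arrays, against 10.79, 10.81 and 10.89 on the vehicle arrays. Atf3 encodes a stress-induced repressor, and its change of 0.26 (95% interval 0.07 to 0.45) did not pass the test. Mthfd2 of mitochondrial folate metabolism, the amino acid carriers Slc7a5 and Slc38a2, the stress regulator Nupr1 and Atf4 itself, all named after their values were seen, rose by 1.00, 1.01, 1.05, 1.07 and 0.67. The serine synthesis genes Phgdh, Psat1 and Psph, which are also ATF4 targets, read 4.20, 6.52 and 5.82 with SA against 3.85, 6.52 and 5.63 with vehicle, and none of the 3 passed.

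The other branches of the ER stress response gave few calls. Of 22 ER chaperone genes, 2 rose and none fell, with a median of 0.01 (-0.02 to 0.03 when 1 array was left out). Of 23 XBP1 and ER-associated degradation genes, 2 rose and none fell, with a median of 0.04 (-0.01 to 0.07). Hspa5 read 9.74, 9.68, 9.75 and 9.73 on the SA arrays, against 9.32, 9.37 and 9.38 on the vehicle arrays. Hspa5 encodes BiP, the main chaperone of the ER, and rose by 0.37 ± 0.08 (SE) (adjusted p = 0.00716). Herpud1 read 7.66, 7.94, 7.92 and 7.85 on the SA arrays, against 6.53, 6.43 and 6.41 on the vehicle arrays. Herpud1 builds the complex that extracts proteins for degradation, and was 2.62-fold higher (adjusted p = 3.86e-08). Ern1, which encodes the sensor IRE1-alpha, rose by 0.58 ± 0.11 (SE). Xbp1 read 6.89, 6.82, 6.91 and 6.89 on the SA arrays, against 6.75, 6.98 and 6.84 on the vehicle arrays. Xbp1 encodes the transcription factor whose mRNA that sensor splices, and the summed level measured here changed by 0.02 (95% interval -0.15 to 0.19), which did not pass. Dnajb9, a co-chaperone and XBP1 target, changed by 0.30 (95% interval 0.07 to 0.53) and did not pass. The other risen chaperone gene was Ero1a, an ER oxidase, at 0.32 ± 0.09 (SE), a call lost without vehicle replicate 1, 2 or 3 or SA replicate 3 or 4 (log2 change 0.25 to 0.33, adjusted p 0.0909 to 0.152). The aminoacyl-tRNA synthetase genes formed a separate list that stands for neither of these branches. Of its 18 genes, Cars and Eprs rose, by 0.66 ± 0.10 (SE) and 0.40 ± 0.09 (SE). The call of Eprs was lost without vehicle replicate 1 or 2 or SA replicate 4 (log2 change 0.35 to 0.40, adjusted p 0.0503 to 0.099).

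Redox and metal defence genes rose in 9 of 26 NRF2 targets, with none fallen and a median of 0.14 (0.09 without SA replicate 3, 0.24 without SA replicate 2). Sqstm1 read 10.58, 10.59, 10.71 and 10.71 on the SA arrays, against 9.45, 9.38 and 9.54 on the vehicle arrays. Sqstm1 encodes p62, an autophagy receptor that also binds the NRF2 inhibitor KEAP1, and was 2.28-fold higher (adjusted p = 9.46e-09). Gclc read 7.47, 7.48, 7.64 and 7.66 on the SA arrays, against 6.39, 6.63 and 6.77 on the vehicle arrays. Gclc encodes the catalytic subunit that limits glutathione synthesis, and rose by 0.97 ± 0.12 (SE). Srxn1 read 9.62, 9.62, 9.72 and 9.63 on the SA arrays, against 8.96, 8.91 and 9.04 on the vehicle arrays. Sulfiredoxin, the Srxn1 product, reactivates peroxiredoxins, and the gene rose by 0.68 ± 0.09 (SE). Hmox1 read 11.40, 11.36, 11.41 and 11.42 on the SA arrays, against 10.91, 10.89 and 10.90 on the vehicle arrays. Hmox1, the heme-degrading enzyme, rose by 0.50 ± 0.08 (SE) from an already high level. Spic read 6.74, 6.71, 7.25 and 6.85 on the SA arrays, against 4.61, 4.94 and 5.27 on the vehicle arrays. Spic encodes a transcription factor of iron-recycling macrophages and was 3.86-fold higher (adjusted p = 4.71e-08). The metallothionein gene Mt2 and the zinc exporter gene Slc30a1 rose by 0.85 ± 0.14 (SE) and 0.96 ± 0.08 (SE). Of 18 genes listed as cytosolic heat shock proteins, 1 rose and 2 fell. The riser was Hspa9 (0.37), whose product is the HSP70 of mitochondria, a call lost without vehicle replicate 1 or 2 (log2 change 0.33 to 0.36, adjusted p 0.0571 to 0.0853). Hsph1 and Dnaja1, cytosolic co-chaperone genes, fell by 0.47 and 0.36, and the call of Dnaja1 was lost without vehicle replicate 2 or 3 or SA replicate 3 (log2 change -0.36 to -0.31, adjusted p 0.0502 to 0.0908).

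**Figure D3:**
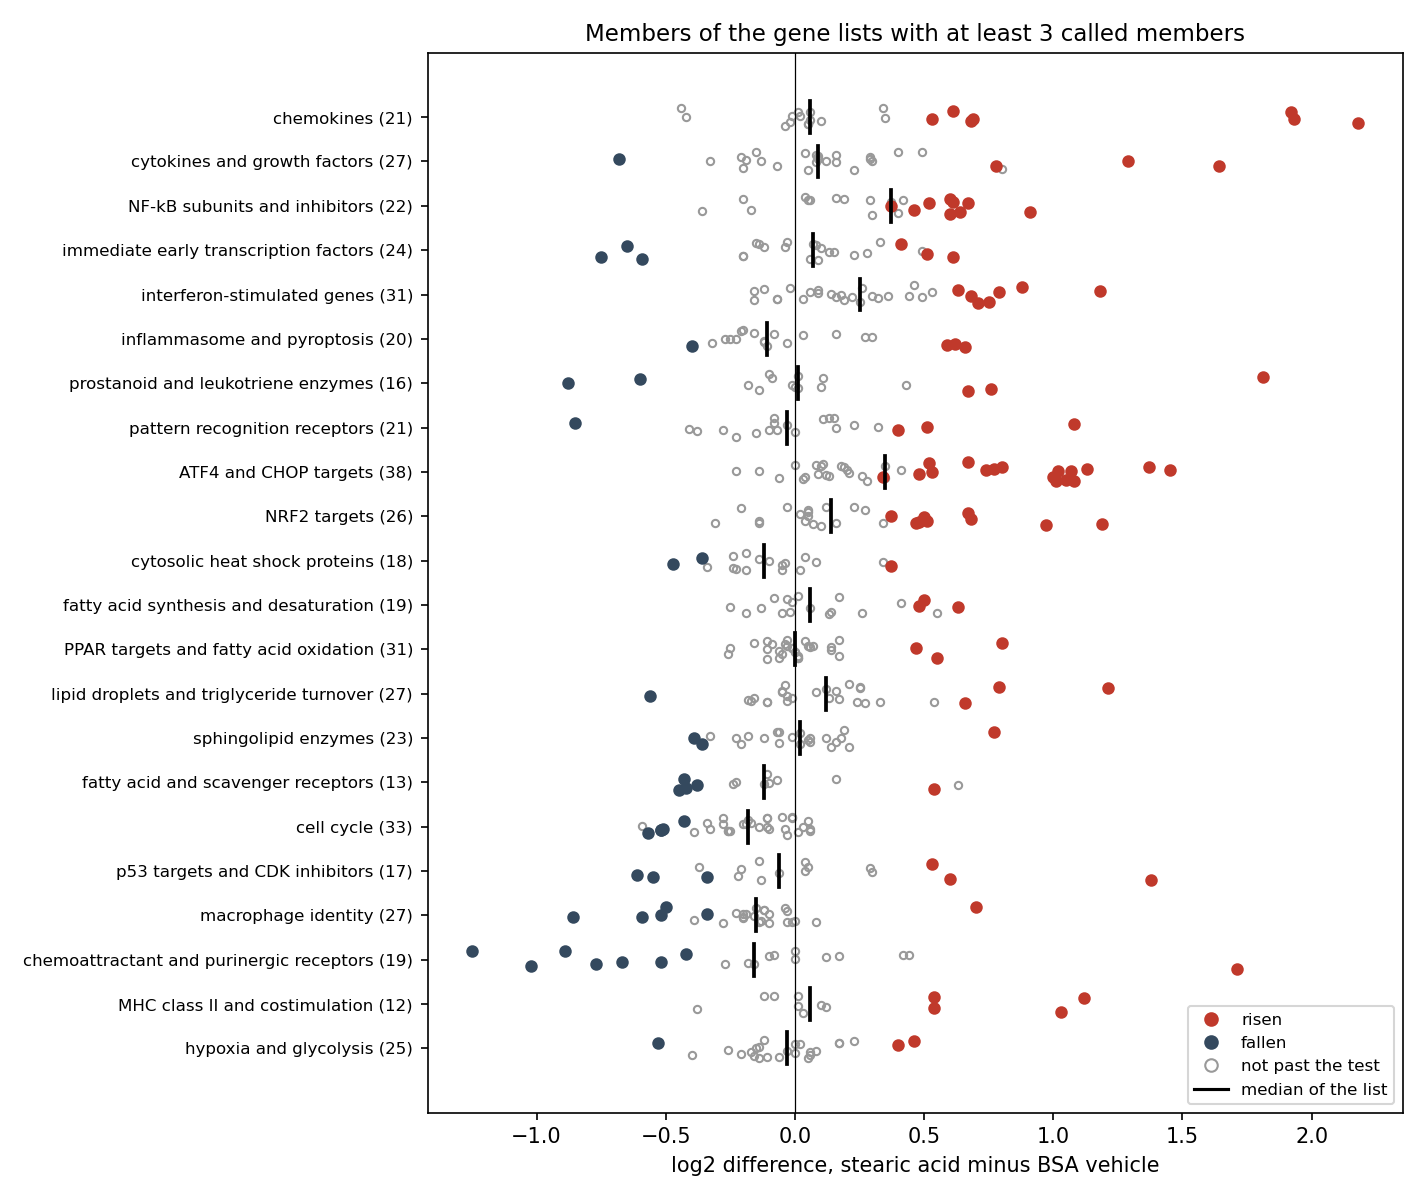
Log2 difference of SA minus vehicle (horizontal axis) for the measured members of each list with at least 3 called members, with the number measured in brackets, risen members in red, fallen members in dark blue, other members as open circles and the list median as a bar. The medians of the NF-kB list, at 0.37, and of the ATF4 and CHOP list, at 0.35, lie farthest to the right.

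A few lipid storage genes rose. Plin2 read 10.16, 10.25, 10.26 and 10.25 on the SA arrays, against 9.36, 9.51 and 9.45 on the vehicle arrays. Plin2 coats lipid droplets and rose by 0.79 ± 0.08 (SE) (adjusted p = 8.95e-07). Mgll read 7.04, 6.80, 6.92 and 7.13 on the SA arrays, against 5.52, 5.90 and 5.88 on the vehicle arrays. Mgll encodes monoacylglycerol lipase and was 2.31-fold higher (adjusted p = 7.76e-07). Abhd5 read 7.95, 7.89, 7.99 and 7.94 on the SA arrays, against 8.48, 8.55 and 8.48 on the vehicle arrays. Abhd5 encodes the co-activator of the first lipase of triglyceride breakdown, and fell by 0.56 (adjusted p = 3.07e-05). Hilpda, whose product inhibits that lipase, rose by 0.66 ± 0.15 (SE), a call lost without vehicle replicate 1 (log2 change 0.65, adjusted p = 0.0525) or 2 (log2 change 0.61, adjusted p = 0.0871). Of 27 lipid droplet and triglyceride genes, 3 rose and 1 fell, with a median of 0.12 (0.06 to 0.07 without vehicle replicate 2 or SA replicate 1, 2 or 3). Cpt1a read 6.95, 6.84, 7.17 and 7.09 on the SA arrays, against 6.43, 6.48 and 6.47 on the vehicle arrays. Cpt1a, the gate of mitochondrial fatty acid oxidation and a PPAR target, rose by 0.55 ± 0.10 (SE) (adjusted p = 0.000948). The fatty acid carrier Fabp4 and the nuclear receptor Ppard rose by 0.47 ± 0.09 (SE) and 0.80 ± 0.11 (SE), and they complete the 3 risen members among 31 PPAR and oxidation genes. The PPAR targets Angptl4 and Pdk4 changed by 0.17 (95% interval -0.10 to 0.45) and 0.17 (95% interval -0.16 to 0.51), and neither passed. Pdk4 read 2.58 with SA and 2.40 with vehicle, below the array medians, so the size of its change is uncertain. Ugcg, the synthase of glucosylceramide, rose by 0.77 ± 0.12 (SE), while the ceramide synthase gene Cers5 fell by 0.39.

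Of 10 SREBP regulator and sterol uptake genes, Insig1 alone rose and none fell, with a median of 0.15 (0.10 to 0.23 when 1 array was left out). Insig1 read 9.33, 9.39, 9.31 and 9.39 on the SA arrays, against 8.48, 8.46 and 8.46 on the vehicle arrays. Insig1 retains the SREBP transcription factors in the ER and is their target, and it rose by 0.88 ± 0.10 (SE) (adjusted p = 3e-06). Of 17 cholesterol synthesis genes, 2 rose (Mvd and Sc5d), with a median of 0.15. Both calls were lost without any of the 3 vehicle arrays, and without SA replicate 3 or 4 (Mvd) or 1 or 2 (Sc5d), with log2 change 0.45 to 0.63, adjusted p 0.0578 to 0.237 for Mvd and log2 change 0.27 to 0.40, adjusted p 0.0519 to 0.236 for Sc5d. Scd2 read 8.44, 8.50, 8.39 and 8.43 on the SA arrays, against 7.96, 7.97 and 7.95 on the vehicle arrays. Scd2 encodes a desaturase that turns stearic into oleic acid, and rose by 0.48 ± 0.11 (SE) (adjusted p = 0.0134), a call lost without vehicle replicate 1, 2 or 3 (log2 change 0.48 to 0.49, adjusted p 0.051 to 0.0549). Scd1, its homologue, lay below the array medians, with a change of 0.55 (95% interval 0.12 to 0.98) that did not pass. Hmgcs1 and Abca1, genes of sterol synthesis and export, changed by 0.00 (95% interval -0.20 to 0.20) and 0.01 (95% interval -0.16 to 0.18) and did not pass. Mylip, an LXR target that encodes a ubiquitin ligase, rose by 0.72 ± 0.11 (SE). It was the only call among 9 LXR targets, whose median was -0.03.

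Receptors, signalling feedback genes and transcription factors were among the largest falls. Gpr65 read 7.69, 7.61, 7.72 and 7.42 on the SA arrays, against 8.80, 9.01 and 8.78 on the vehicle arrays. Gpr65 encodes a proton-sensing receptor and was 2.38-fold lower with SA (log2 change -1.25 ± 0.12 (SE), adjusted p = 2.26e-07). Cx3cr1 read 7.27, 7.23, 7.48 and 7.37 on the SA arrays, against 8.33, 8.37 and 8.38 on the vehicle arrays. Cx3cr1 encodes the fractalkine receptor and was 2.03-fold lower (adjusted p = 9.87e-06). Ccr2 read 3.63, 3.91, 4.11 and 3.99 on the SA arrays, against 4.82, 4.77 and 4.80 on the vehicle arrays. Ccr2 encodes the receptor that draws monocytes to Ccl2, and it fell by 0.89 to a level below the array medians. Of 19 chemoattractant and purinergic receptors, 7 fell and 1 rose (Ccrl2), with a median of -0.16. Dusp6 read 5.79, 6.00, 5.99 and 5.94 on the SA arrays, against 6.94, 7.07 and 7.19 on the vehicle arrays. Dusp6 encodes a phosphatase that switches off ERK, and was 2.2-fold lower (adjusted p = 4.78e-08). Zfp36l1 read 5.69, 5.87, 5.75 and 5.45 on the SA arrays, against 6.61, 6.64 and 6.98 on the vehicle arrays. Zfp36l1 encodes a protein that destabilises mRNA, and fell by 1.05. Of 24 immediate early transcription factor genes, 3 rose and 3 fell, with a median of 0.07. Fos and Myc, early targets of growth factor signalling, and the antiproliferative gene Btg2 fell by 0.59, 0.65 and 0.75. Klf6, Mafk and Maff, the first 2 named after their values were seen, rose by 0.41, 0.51 and 0.61, and 1 rise was left without vehicle replicate 3. The call of Maff was lost without vehicle replicate 1, 2 or 3 or SA replicate 3 or 4 (log2 change 0.47 to 0.68, adjusted p 0.0522 to 0.167). Tifab read 5.97, 6.05, 5.92 and 6.03 on the SA arrays, against 7.13, 7.26 and 7.16 on the vehicle arrays. Tifab encodes an inhibitor of TRAF6-dependent signalling and was 2.28-fold lower. Mef2c read 6.20, 6.39, 5.92 and 5.98 on the SA arrays, against 6.99, 7.14 and 7.07 on the vehicle arrays. Mef2c, a transcription factor gene, fell by 0.94. Cytip, which encodes a protein that regulates leukocyte adhesion, fell by 0.93, a call lost without vehicle replicate 1, 2 or 3 or SA replicate 2 (log2 change -0.96 to -0.66, adjusted p 0.0531 to 0.0906). F630028O10Rik fell farthest, by 1.37 (adjusted p = 1.35e-08).

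Macrophage identity genes fell in 5 of 27 cases and rose in 1, with a median of -0.15. Fcgr1 read 6.59, 6.66, 6.29 and 6.51 on the SA arrays, against 7.16, 7.57 and 7.38 on the vehicle arrays. Fcgr1 encodes the high-affinity receptor for immunoglobulin G, and was 1.82-fold lower (adjusted p = 0.00013). Maf, which encodes a transcription factor of resident macrophages, fell by 0.59. Tfec, which encodes a transcription factor of the MiT family, rose by 0.70 ± 0.11 (SE). The count of fallen identity genes was 2 without vehicle replicate 2 or 3 or SA replicate 4, and 3 without SA replicate 1 or 2. Stab1 and Msr1, genes of scavenger receptors, fell by 0.45 and 0.42, and 4 of 13 fatty acid and scavenger receptors fell (2 without vehicle replicate 2 or 3 or SA replicate 2). Of 33 cell cycle genes, 5 fell and none rose, with a median of -0.18, and 3 fell without vehicle replicate 1 or 3. Ccnd1 read 8.75, 8.87, 8.61 and 8.92 on the SA arrays, against 9.47, 9.28 and 9.34 on the vehicle arrays. Ccnd1 encodes cyclin D1, which carries growth factor signals into the cycle, and fell by 0.57, a call lost without vehicle replicate 1 (log2 change -0.52, adjusted p = 0.0897) or SA replicate 3 (log2 change -0.52, adjusted p = 0.0554). Of 24 respiratory chain genes and 22 lysosome genes, none passed the limma test, with medians of -0.07 and -0.02, while without SA replicate 2 a respiratory chain gene fell and a lysosome gene rose. At an unadjusted p under 0.05, 3 respiratory chain genes were lower, and 3 lysosome genes were higher and 1 lower. Of all 19938 genes, 2697 passed this unadjusted threshold in either direction. Of 11 housekeeping genes, 1 fell and none rose, with a median of -0.07. The fallen gene, Hprt, changed by -0.35 (adjusted p = 0.0203), a size near that of the smallest calls above. Its call was lost without any of the 3 vehicle arrays or SA replicate 2 or 3 (log2 change -0.37 to -0.33, adjusted p 0.0531 to 0.0957).

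Oleic acid, LPS and SA were each set against the same 3 vehicle arrays, so these comparisons share their error, and the direct tests below compare SA with the other treatment. Against vehicle, 4 genes (0.0201%) rose and 10 (0.0502%) fell with OA, and 1839 (9.22%) rose and 2625 (13.2%) fell with LPS. Direct comparison gave 658 genes (3.3%) higher and 473 (2.37%) lower with SA than with OA, and 2584 (13%) higher and 1816 (9.11%) lower with SA than with LPS. With each array centred on its median, the split against LPS turned to 1924 higher and 2128 lower with SA, and that of LPS against vehicle to 2114 risen and 1950 fallen.

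Some sterol and oxidation genes differed between the acids. Plin2 changed by 0.79 with SA and 0.90 with OA, and the direct difference, SA minus OA, was -0.11 (95% interval -0.27 to 0.05), which did not pass the test. Cpt1a changed by 0.55 with SA and 0.99 with OA, and was lower with SA than with OA by 0.44 (adjusted p = 0.00255). Angptl4 changed by 0.17 with SA and 1.11 with OA, and was lower with SA by 0.93 (adjusted p = 1.09e-05). Fabp4 and Ppard were higher with SA than with OA, by 0.47 (adjusted p = 0.000518) and 0.93 (adjusted p = 5.26e-07). Of 31 PPAR and oxidation genes, 2 were higher and 3 lower with SA than with OA, with a median difference of -0.10. Insig1 moved in opposite directions, 0.88 with SA and -0.66 with OA, both past the test, as did Scd2 at 0.48 and -0.96. Of 17 cholesterol synthesis genes, 12 were higher with SA than with OA and none lower, with a median difference of 0.49. That median came with -0.34 for OA and 0.15 for SA, each against vehicle. Ccl5 changed by 0.69 with SA and -0.74 with OA, both past the test.

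Most of the chemokine and interferon-stimulated genes were lower with SA than with LPS. Cxcl2 changed by 1.93 with SA and 2.61 with LPS, and was lower with SA than with LPS by 0.68 (adjusted p = 4.35e-06). Ptgs2 changed by 1.81 with SA and 6.40 with LPS, and was lower with SA by 4.59. Il1b fell with SA (-0.68) and rose with LPS (4.56), and Il6 read 2.02 with SA, 9.79 with LPS and 1.72 with vehicle. All 31 interferon-stimulated genes were lower with SA than with LPS, with a median difference of -3.14, and 18 of 21 chemokines were. Fcgr1, Themis2, Slamf9 and Tlr8 fell with SA and rose with LPS. Themis2, which encodes a signalling scaffold of myeloid and B cells, changed by -0.93 and 1.42.

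Stress and lipid genes were in part higher with SA than with LPS. Ddit3 changed by 1.37 with SA and -0.38 with LPS, and was higher with SA than with LPS by 1.75 (adjusted p = 6.29e-13). Of the 38 ATF4 and CHOP targets, 16 were higher with SA than with LPS and 2 lower, with a median difference of 0.28. Asns and Chac1 changed by 1.08 and 1.13 with SA, and by 0.10 and 0.05 with LPS, neither of which passed. Slc7a11 was the exception among the genes printed above, at 1.02 with SA and 2.50 with LPS. Plin2, Mgll and Insig1 were higher with SA than with LPS by 1.49, 1.42 and 1.50. Scd2 changed by 0.48 with SA and -2.81 with LPS. Of 33 cell cycle genes, 22 were higher with SA than with LPS and 3 lower, with a median difference of 0.48, and 26 had fallen with LPS. Among the 12 largest rises with SA, Ednrb alone passed the direct test as higher with SA than with LPS. Ednrb encodes an endothelin receptor and changed by 1.74 with SA and 1.16 with LPS, from a vehicle level of 3.28 below the array medians.

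**Figure D4:**
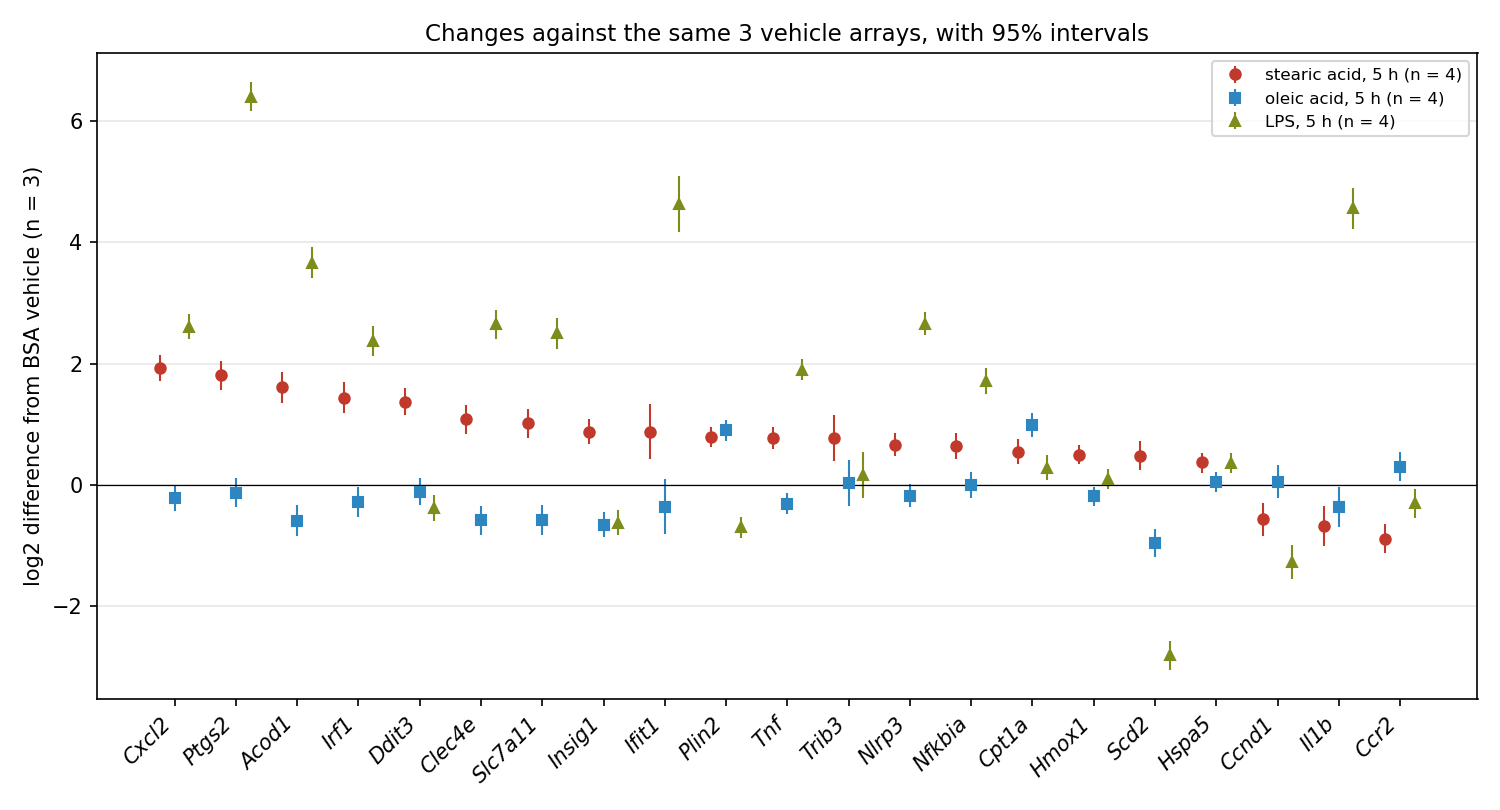
Log2 difference from the vehicle arrays (n = 3) with 95% intervals for the chosen marker genes that passed the test with SA, shown for SA (red circles), OA (blue squares) and LPS (green triangles), n = 4 each. Plin2 and Cpt1a lie above 0 with both acids, Ddit3 lies at 1.37 with SA and -0.38 with LPS, and Il1b falls with SA (-0.68) and rises with LPS (4.56).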

How the data were processed

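Each sample was hybridised to 1 single-channel array after about 10 ng of RNA was amplified and labelled with biotin, per the labels' protocols. For each probe set the deposited file gives log2 expression, and the submitters' processing notes name RMA and limma, with no version or role. Of 35556 probe sets, 21789 carried 1 gene symbol, 1621 several and 12146 none, and 21698 matched RefSeq by Entrez identifier. The brightest probe set over the 23 arrays stood for each of the 999 genes with several, which left 19938 genes. The model, with 1 mean per group for 6 groups, was fitted with limma 3.58.1 in R 4.3.3 (17 residual degrees of freedom), with two-sided p-values adjusted over all genes by Benjamini-Hochberg and called under 0.05. On data simulated for this comparison over 19938 genes, 47.8% of changes of 0.5, 100% of changes of 1 and 100% of changes of 2 (log2) were recovered, with 4.07% of calls false. The simulation changed 67, 67 and 66 genes by these sizes, and its shares hold for that mix. The data gave 664 called genes, 51 of them changed at least 2-fold. The rule for named genes took the 12 largest rises and 12 largest falls without overlap, and up to 4 called members of each of 45 lists. Of 899 listed genes, 831 were measured. The rule added 35 chosen genes, 34 of them measured, and gave 139 genes in all. The text discusses only part of these. Called genes that it leaves out include Gem (1.59), Plpp3 (1.45) and Gadd45b (1.38), which rose, and Npas4 and Trib1 (both -0.93), which fell. Members and lists were chosen with earlier results of these data known. Listed genes without a probe set of their own symbol were not analysed here. Motifs were searched on both strands in the RefSeq promoters of 15562 tested genes. These genes had 19115 windows, as some have several start sites. A gene counted if any of its windows held the motif, and only windows with a match are printed. Alternatives comprised other moderation, centring, normalisation, array weights, filters, probe set rules, a replicate block, the compared groups alone and leaving out each array. The number of arrays limits the precision.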

Additional observations from a re-analysis of the deposited data

Results flagged for a closer look

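Among the 139 named genes, 7 had an SA array farther from the others of its group than Dixon's limit for 4 samples, and chance alone flags about 1 group in 20. Rsad2 read 7.15 on replicate 1 against 7.46 to 7.47 on the other SA arrays. Cxcl3 read 6.08 on replicate 2 against 6.29 to 6.32, and Angptl4 read 4.73 on replicate 2 against 4.91 to 4.92. Plin2 read 10.16 on replicate 1 against 10.25 to 10.26, and Pfkfb3, a glycolytic regulator, read 6.88 on replicate 1 against 6.76 to 6.78. Srxn1 read 9.72 on replicate 3 against 9.62 to 9.63, and Aif1, a macrophage calcium-binding protein gene, read 7.67 on replicate 3 against 7.29 to 7.34. The SA changes of these genes were 1.18 (Rsad2), 2.18 (Cxcl3), 0.79 (Plin2), 0.68 (Srxn1), 0.40 (Pfkfb3), -0.52 (Aif1) and 0.17 (Angptl4), and that of Angptl4 did not pass the test. The call of Aif1 was lost without vehicle replicate 2 or 3 or SA replicate 1, 2 or 4 (log2 change -0.52 to -0.46, adjusted p 0.0663 to 0.144).

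Some probe sets outside the gene comparison also passed the test. When every probe set was tested, 136 of those with several symbols or none passed. Of 12146 without a symbol, 38 rose and 54 fell with SA, and of 1621 with several symbols, 6 rose and 38 fell. In the gene comparison, 386 of 19938 genes rose and 278 fell. What the probe sets without a symbol measure was not tested.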

How the results depend on the processing

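The SA calls against vehicle depended most on the vehicle arrays and on the spread shared with the other groups. Against 386 risen and 278 fallen genes, the compared groups alone gave 232 and 141, of which 356 of 373 were called before, and leaving out 1 array gave 249 to 357 and 140 to 255. Without vehicle replicate 1 the counts were 255 and 206, without vehicle replicate 2 they were 249 and 140, and without vehicle replicate 3 they were 296 and 156. A variance trend with robust moderation gave 422 fallen genes. The replicate block gave 369 risen and 270 fallen. Same-numbered SA and vehicle arrays did not deviate together (r = -0.09, -0.01 and -0.04). These correlations rest on deviations from means of 4 and 3 arrays, so they cannot exclude that the samples were paired by number. SA against OA gave 405 and 255 in the compared groups alone, and 500 to 669 and 319 to 410 without 1 array. SA against LPS gave 2199 to 2499 and 1663 to 1771, and LPS against vehicle 1574 to 1791 and 2041 to 2545, without 1 array. OA against vehicle gave 8 and 21 with the variance trend, 7 risen after quantile normalisation and with array weights, 3 fallen in the compared groups alone, and 3 to 7 and 4 to 9 without 1 array. Of the 139 genes named by the rule, 126 were called. Of these called genes, 83 were called under all 16 alternatives, and 38 lost the call when 1 array was left out. Called genes that were named after their values were seen lie outside the rule, and their calls were not followed singly. Among the 139 genes, changes of sign were limited to genes without a call. Hmgcs1 gave -0.01 with array weights, -0.02 with the replicate block and -0.07 to 0.06 without 1 array. Without 1 array, Abca1 gave -0.05 to 0.07, Xbp1 -0.04 to 0.08 and Ifnb1 -0.28 to 0.02. Apart from fewer samples, the cause was not tested. Signal over background was not assessed.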
